A study of Mus musculus with 12 samples.

Results

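Collagen chain genes encode the subunits of collagens, the trimeric proteins that make up most of the extracellular matrix. They were taken as all rows of the deposited count table whose gene symbol has the form Col, a number, a, and a number, which gave 44 genes of 37310. The cells were mouse lines derived from embryonic fibroblasts (MEF). One line is labelled as knocked out for HP1γ, a heterochromatin protein encoded by Cbx3 (called KO in what follows, R in the labels), and the other as the same kind of cell complemented with HP1γ again (HPg). Nearly confluent cultures of both lines were left untreated or received the phorbol ester PMA, dissolved in DMSO, at 100 nM for 30 min. Whether untreated cells received DMSO remains not given in the sources used here. This gives 4 groups of 3 libraries, HPg, HPg PMA, KO and KO PMA, which the study calls biological triplicates. Each genotype is 1 line, so line and genotype cannot be told apart. The construct and promoter that restored HP1γ remain not given in the sources used here. The comparisons ask how collagen RNA differs between the lines, without and with PMA, and how it responds to PMA in each line.

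Every collagen chain contains stretches of the repeat Gly-X-Y, which wind around those of its partner chains into a triple helix. Fibrillar chains build the fibrils of skin, bone, tendon and cartilage, and basement membrane chains (type IV) build sheet-like networks beneath epithelia and around vessels and muscle. FACIT chains decorate the surface of fibrils, and the other classes form beaded filaments (type VI), hexagonal networks and anchoring fibrils, transmembrane proteins, and the multiplexins of basement membrane zones. Fibroblasts are known as major producers of types I, III, V and VI. PMA activates protein kinase C and, through it, rapid transcription of early response genes.

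Total counts ranged from 111458145 to 159929347 per library. Cbx3 (ENSMUSG00000029836) had 37.1, 37.4 and 41.5 CPM in HPg libraries 1 to 3, 43.1, 33.8 and 38.9 in HPg PMA, 35.5, 39.0 and 35.0 in KO and 33.3, 26.9 and 35.2 in KO PMA. CPM are counts scaled by library size and TMM factor. The groups overlapped, and the log2 fold change of KO against HPg averaged over PMA was -0.18 (SE 0.091, edgeR adjusted p = 0.232), so this gene does not check the labels and the libraries are called knockout-labelled or KO from here on. Of 8 fibroblast markers, Vim had 2800 to 4970 CPM and Pdgfrb 280 to 383 CPM, while Fap (0.107 to 0.505 CPM) and Thy1 (0.0377 CPM or less) were near 0. The libraries numbered 2 stand apart in all 4 groups, as described for the collagens in a later paragraph. HPg library 2 also had the fewest genes detected, 17822 against 19759 to 20656 in the other libraries.

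Collagen chains took 1.05% to 2.08% of all counts of a library. Of the 44, 5 exceeded 1000 CPM, 12 exceeded 100 CPM and 23 exceeded 1 CPM in the mean of the 12 libraries. The 7 chains Col9a1, Col24a1, Col28a1, Col6a5, Col6a6, Col15a1 and Col25a1 had 0 to 24 counts per library and did not pass the filter on low counts. The 37 tested chains were 10 of 11 fibrillar, 6 of 6 basement membrane, 8 of 9 FACIT, 5 of 8 beaded filament, 4 of 4 network and anchoring, 3 of 4 transmembrane and 1 of 2 multiplexin chains. Levels of different chains are compared per kilobase of exon. The length counts all annotated exons of a gene together, so it can exceed that of any 1 transcript, and comparisons between chains depend on it.

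Col1a1, the α1 chain of type I collagen, had the highest level per kilobase of the collagen chains, at 719 CPM per kb in the mean of 12 libraries (lowest library 440, highest 1120). Next came Col6a1 of type VI (264 CPM per kb) and Col5a2 of type V (198 CPM per kb), then Col3a1 (153), Col4a2 (124), Col5a1 (118) and Col4a1 (110). The ranges over libraries of Col3a1 (62.8 to 287 CPM per kb) and Col5a2 (146 to 249) overlapped, as did those of Col4a2 (92.7 to 172), Col5a1 (85.3 to 177) and Col4a1 (80.7 to 148), so the order within these neighbours was not separated by the spread. Col6a2 (75 CPM per kb) and Col6a3 (74.3) followed, which with Col6a1 encode the main type VI chains. The most abundant FACIT chains were Col12a1 (26.7 CPM per kb), Col16a1 (17.4) and Col20a1 (1.1), and the most abundant multiplexin was Col18a1 (24.7), the precursor of endostatin. Col8a2 led the network chains (5.25 CPM per kb) and Col17a1, a hemidesmosome protein, the transmembrane chains (0.0844).

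Per library, Col6a1 had 1180, 1560 and 1040 CPM in HPg libraries 1 to 3, 938, 1530 and 1090 in HPg PMA, 1050, 1180 and 971 in KO, and 1060, 1230 and 1030 in KO PMA. Col5a2, the α2 chain of the type V collagen that nucleates fibrils, had 1880, 1910 and 1400 CPM in HPg, 1760, 1960 and 1610 in HPg PMA, 2080, 2390 and 1710 in KO, and 1920, 2220 and 1910 in KO PMA. Both were highest in library 2 of every group, and the lines overlapped. Col12a1 had 305, 487 and 322 CPM in HPg, 311, 438 and 329 in HPg PMA, 422, 585 and 413 in KO, and 389, 466 and 411 in KO PMA. Col16a1, a FACIT chain of skin and muscle matrix, had 96.2, 160 and 98.6 CPM in HPg, 102, 161 and 119 in HPg PMA, 94.8, 125 and 93.8 in KO, and 109, 139 and 115 in KO PMA. These FACIT chains were also highest in library 2 of each group. Col18a1 had 207, 173 and 114 CPM in HPg, 183, 181 and 140 in HPg PMA, 187, 189 and 140 in KO, and 191, 211 and 161 in KO PMA, with library 3 lowest in every group. Col8a2 had 8.83, 40.2 and 15.2 CPM in HPg, 6.76, 42 and 12.6 in HPg PMA, 16.8, 40.9 and 22.8 in KO, and 16, 38.2 and 22.3 in KO PMA. Col17a1 had 0.395, 0.176 and 0.501 CPM in HPg, 0.42, 0.343 and 0.367 in HPg PMA, 1, 0.402 and 0.775 in KO, and 0.776, 0.467 and 0.46 in KO PMA. Col8a2 was highest and Col17a1 not highest in library 2 of each group, and both overlapped between the lines.

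**Figure D1:**
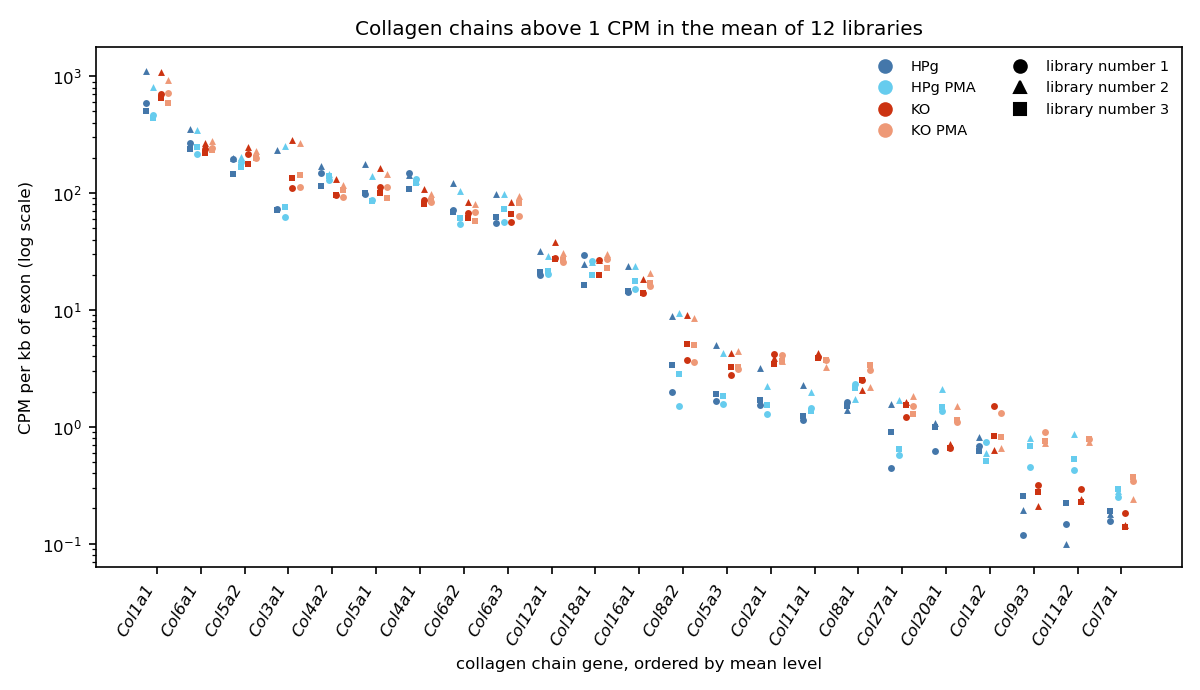
Level of each collagen chain above 1 CPM, in CPM per kb of exon on a log axis, for the 12 libraries (colour: group; circle, triangle and square: libraries 1, 2 and 3). Chains span from 719 CPM per kb in the mean for Col1a1 to 0.231 for Col7a1, and triangles lie highest in every group for Col1a1 and Col3a1.

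Partner chains of 1 protein were at similar levels for type IV but not for type I. Col4a1 and Col4a2, which join in a shared trimer, had a ratio of 0.805 to 1.02 per kilobase in the 12 libraries. Col1a1 and Col1a2, which normally join in the type I trimer, had a ratio of 467 to 1720. Col1a2 had 8.58, 10.1 and 7.72 CPM in HPg libraries 1 to 3, 9.13, 7.39 and 6.32 in HPg PMA, 18.8, 7.80 and 10.4 in KO, and 16.4, 8.20 and 10.2 in KO PMA. It was therefore low in every library of both lines, where Col1a1 had 2890 to 7340 CPM. In the annotation's gene order Casd1, the gene next to Col1a2, had 1 count in all 12 libraries together, while Bet1 on the other side had 2060 to 4707 counts per library. Beyond Casd1, Sgce had 12 to 108, Peg10 13 to 134 and Ppp1r9a 218 to 613 counts per library. The part of the neighbourhood in the level of Col1a2 was not tested. Col5a1 and Col5a2 had a ratio of 0.458 to 0.891, Col6a1 and Col6a3 of 2.87 to 4.86, and Col6a1 and Col6a2 of 2.94 to 4.1 per kilobase. The exon lengths used were 4380 bases for Col6a1 and 8326 for Col6a2. Before division by length, their means over the 12 libraries were 1160 and 625 CPM. The network partners Col8a1 and Col8a2 had a ratio of 0.156 to 1.54, the sparse type IV pairs Col4a3 and Col4a4 of 0.0887 to 1.64 and Col4a5 and Col4a6 of 0.104 to 1.65, and Col9a3 and Col9a2 of 0.914 to 18.5.

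Fibrillar chains made up most of the collagen counts. Their share of all counts was 0.922% ± 0.39 (SD, n = 3) in HPg, 0.775% ± 0.28 in HPg PMA, 1.07% ± 0.34 in KO and 0.929% ± 0.24 in KO PMA, and the groups overlapped. Basement membrane chains took 0.206%, 0.229% and 0.165% of counts in HPg libraries 1 to 3 and 0.194%, 0.188% and 0.176% in HPg PMA. They took 0.129%, 0.177% and 0.131% in KO and 0.115%, 0.147% and 0.127% in KO PMA. The highest KO library lay above the lowest HPg library, so the untreated groups overlapped, while the KO PMA libraries were all below the HPg PMA libraries. FACIT chains took 0.0400% to 0.0754%, and the other classes together 0.238% to 0.413%.

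In each group the library numbered 2 had the highest collagen share, with 2.08% in HPg, 1.72% in HPg PMA, 2.04% in KO and 1.73% in KO PMA, against 1.05% to 1.33% in the other 8 libraries. Col3a1, the homotrimeric type III chain of extensible tissues, had 713, 2310 and 710 CPM in HPg libraries 1 to 3, 616, 2480 and 753 in HPg PMA, 1090, 2820 and 1320 in KO, and 1100, 2630 and 1410 in KO PMA. Its level in library 2 was 2.09 to 3.63 times the mean of libraries 1 and 3 of the same group. This ratio was 1.42 to 2.03 for Col1a1, 1.99 to 4.34 for Col8a2 and 4.62 to 11 for the sparsely counted FACIT chain Col19a1. Of the 37 tested chains, 18 (48.6%) had a ratio above 1 in all 4 groups, as had 23.0% of all genes tested. Col8a1, Col9a2 and Col17a1 had a ratio below 1 in all 4. What libraries of the same number share remains not given in the sources used here. Because same-numbered libraries deviated together, each comparison below is also given with the number as a block in the fit (the blocked fit), where that changes a call or a count by more than 1.5 times.

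**Figure D2:**
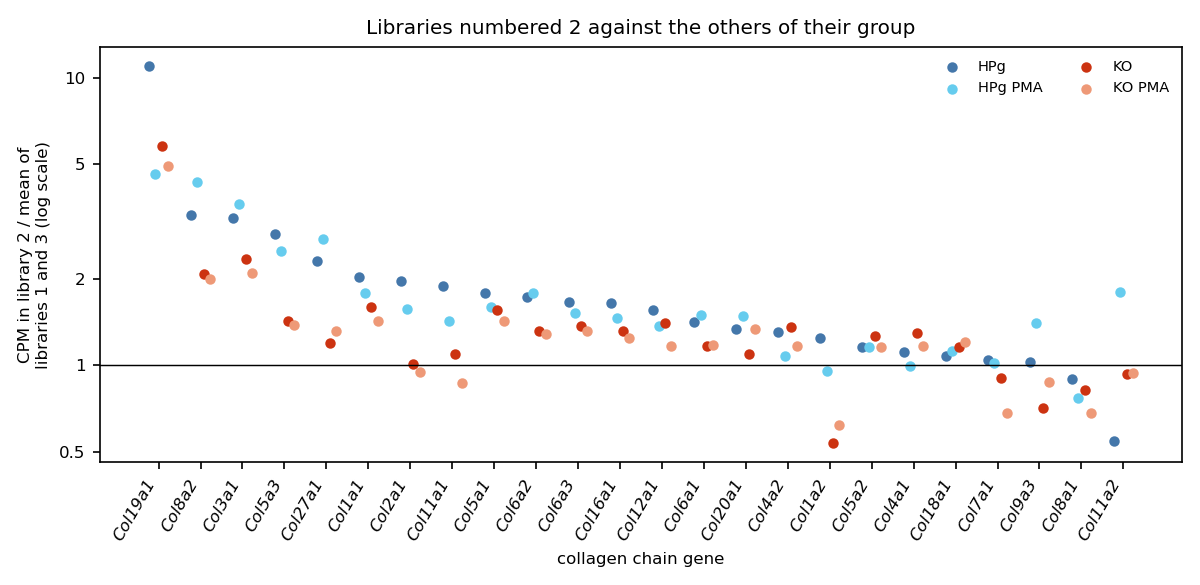
CPM in library 2 divided by the mean of libraries 1 and 3 of the same group, on a log axis, for the collagen chains above 1 CPM and Col19a1; each point is 1 group. Most points lie above the line at 1, with Col19a1, Col8a2 and Col3a1 highest and Col8a1 below 1 in all 4 groups.

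Between the lines, the cartilage-type fibrillar chains Col11a1 and Col2a1 were higher and the basement membrane chains Col4a1 and Col4a6 lower in KO libraries, and the network chain Col8a1 was higher. These are the 5 calls of the comparison of KO with HPg averaged over PMA (edgeR quasi-likelihood test, called at Benjamini-Hochberg adjusted p below 0.05). It called 3 of 37 chains higher (8.11%), beside 5.57% of the 16630 genes tested, and 2 lower (5.41%), beside 4.85%, so the shares called lay near those of all genes. The median log2 fold change was 0.32 over the collagen chains and 0.01 over all genes, with 28 of 37 chains (75.7%) and 50.7% of all genes above 0. The blocked fit called 15 chains higher (40.5%), beside 15.2% of all genes, and 4 lower (10.8%), beside 14.1%. Without the libraries numbered 2, 12 chains were called higher, beside 9.91% of all genes, and 3 lower, beside 8.29%.

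The single comparisons called fewer chains. Without PMA 1 chain was called higher (2.7%, beside 0.806% of all genes) and none lower (beside 0.511%), and the blocked fit called 5 higher (13.5%, beside 7.08%) and 3 lower (8.11%, beside 5.44%). With PMA 2 chains were called higher (5.41%, beside 1.29%) and none lower (beside 1.18%), and the blocked fit called 7 higher (18.9%, beside 9.49%) and 3 lower (8.11%, beside 9.09%). With edgeR, 11 of the 37 chains had an unadjusted p below 0.05 without PMA, beside 2384 of all 16630 genes tested. With PMA 6 of the 37 chains had one, beside 3064 of the 16630 genes. The chains called higher only in the blocked fit were Col2a1, Col3a1, Col12a1 and Col8a1 without PMA, and Col1a1, Col3a1, Col5a3, Col6a4 and Col8a1 with PMA. Those called lower in the blocked fit were Col4a1, Col4a2 and Col4a6 in both comparisons. The median log2 fold change of the chains was 0.27 without and 0.29 with PMA, and 0.01 over all genes in both.

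**Figure D3:**
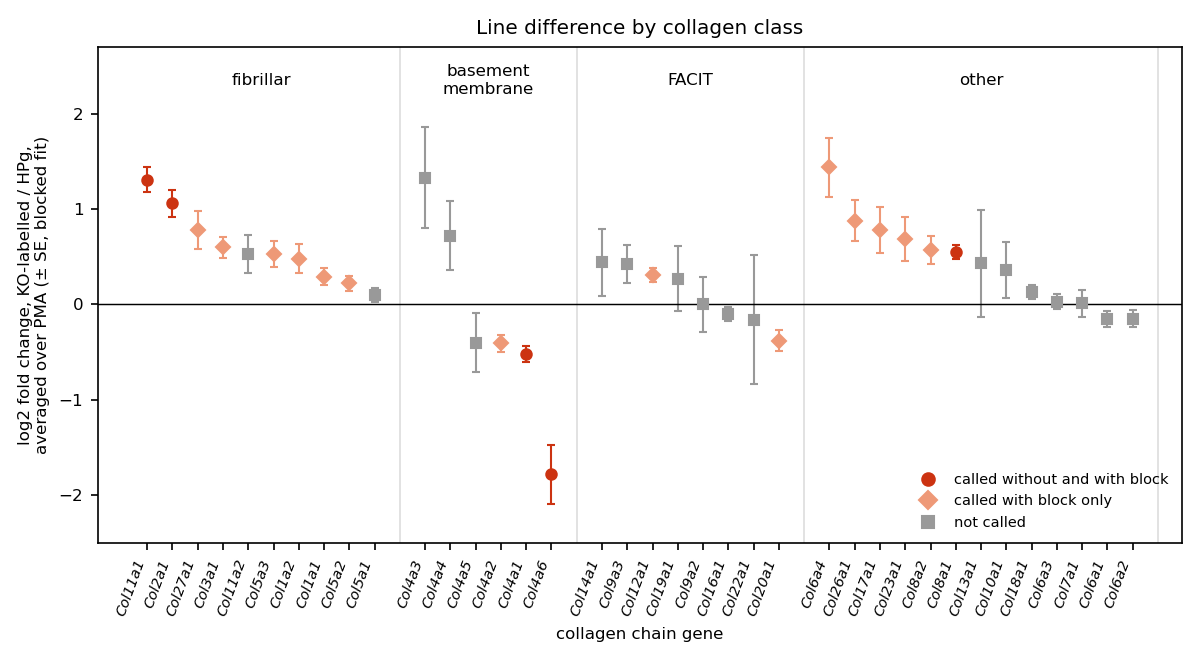
Log2 fold change of KO against HPg averaged over PMA, from the blocked fit, with its standard error, for the 37 tested chains by class. Dark red circles were called without and with the block, light diamonds with the block only, and grey squares in neither; all 10 fibrillar chains lie above 0, and Col4a1, Col4a2, Col4a5 and Col4a6 lie below it.

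Among fibrillar chains, Col11a1 (ENSMUSG00000027966, chromosome 3), the α1 chain of the minor cartilage fibril component type XI, had 14.5, 28.8 and 15.9 CPM in HPg libraries 1 to 3 and 18.4, 25.3 and 17.3 in HPg PMA. It had 50.7, 54.4 and 49.3 CPM in KO and 47.4, 41.4 and 47.9 in KO PMA. All 6 KO libraries lay above all 6 HPg libraries, and library 2 was the highest of both HPg groups. The averaged difference was 2.42-fold (log2 fold change 1.27, SE 0.16, edgeR adjusted p = 7e-04) and was called without each library in turn. It was called without PMA (1.38, SE 0.23, adjusted p = 0.017) and with PMA (1.16, SE 0.23, adjusted p = 0.0239). The call without PMA was lost without HPg library 1 (edgeR adjusted p = 0.0565), HPg library 3 (0.084) or KO library 3 (0.0569), and in a fit of only these 2 groups (0.113). The call with PMA was lost without any 1 of the KO PMA libraries (edgeR adjusted p = 0.0959, 0.0537 and 0.0695 without library 1, 2 and 3), and without library 1 (0.13) or 3 (0.112) of HPg PMA.

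Col2a1 (ENSMUSG00000022483, chromosome 15), the chain of type II collagen of cartilage, had 14.2, 29.3 and 15.6 CPM in HPg and 11.9, 20.7 and 14.3 in HPg PMA. The KO libraries had 38.8, 35.9 and 32.1 CPM, and the KO PMA libraries 37.8, 33.8 and 33.5. The 2 lines did not overlap, and HPg library 2 came closest to the KO libraries. Averaged over PMA, Col2a1 was 2.01-fold higher in KO (log2 fold change 1.01, SE 0.18, edgeR adjusted p = 0.00544, called without each library in turn). With PMA it was called (1.16, SE 0.26, adjusted p = 0.0388), a call lost without KO library 3 or HPg library 3, without library 1 or 3 of HPg PMA, and without any 1 KO PMA library (edgeR adjusted p = 0.0529 to 0.181). Without PMA the log2 fold change was 0.85 (edgeR adjusted p = 0.141, and 0.0113 in the blocked fit). Tmem106c, the neighbour downstream of Col2a1 on the other strand, was higher in KO as well (0.56, edgeR adjusted p = 0.0271), and the part of its reads in the result was not tested.

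The other markers of cartilage did not share this pattern as a list. Of 8 chondrocyte markers, 3 (Matn1, Snorc and Cnmd) had fewer than 10 counts in every library, and Acan, the cartilage proteoglycan, had 0.180 to 0.379 CPM. Their summed level was 6.10 to 8.72 CPM in HPg, 5.36 to 8.39 in HPg PMA, 6.10 to 7.70 in KO and 6.55 to 8.48 in KO PMA, with overlap between the lines. Sox9, the transcription factor of chondrocytes, had means of 3 and 3.63 CPM in HPg without and with PMA and 1.93 and 3.4 in KO, and was called lower in KO without PMA in the blocked fit (-0.6, adjusted p = 0.0465) and not without the block (0.537). Hapln1, a hyaluronan link protein, was called higher in KO (3.11, edgeR adjusted p = 0.000351), with means of 0.159 and 0.220 CPM in HPg and HPg PMA and 1.62 CPM in both KO groups. In bulk RNA, fewer cells of a kind and less RNA per cell cannot be told apart.

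All 10 tested fibrillar chains had log2 fold changes above 0 in the averaged comparison (0.09 to 1.27, median 0.49), beside 50.7% of all genes. The chains were measured in the same libraries, so they are not independent of each other. Col11a1 and Col2a1 were called, and the blocked fit called 8. The 6 added by the block were Col27a1 (0.78, blocked adjusted p = 0.0138), Col3a1 (0.60, 0.00119), Col5a3 (0.53, 0.0122), Col1a2 (0.48, 0.0312), Col1a1 (0.29, 0.022) and Col5a2 (0.22, 0.0453), all edgeR values. Their edgeR adjusted p without the block was 0.143 to 0.583. For Col3a1 the values of the libraries numbered 2 were above those of all other libraries in both lines, and the log2 fold change averaged over PMA was 0.45 with all libraries and 0.82 without those numbered 2 (SE 0.13, edgeR adjusted p = 0.000892). Its direction without PMA turned to -0.05 without KO library 2, and with PMA to -0.03 without KO PMA library 2. Col1a1 had 3900, 7340 and 3340 CPM in HPg, 3090, 5360 and 2890 in HPg PMA, 4630, 7080 and 4250 in KO, and 4710, 6090 and 3900 in KO PMA, so library 2 was the highest of every group and the lines overlapped. Col5a1 (0.09) and Col11a2 (0.53) were called in neither fit.

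**Figure D4:**
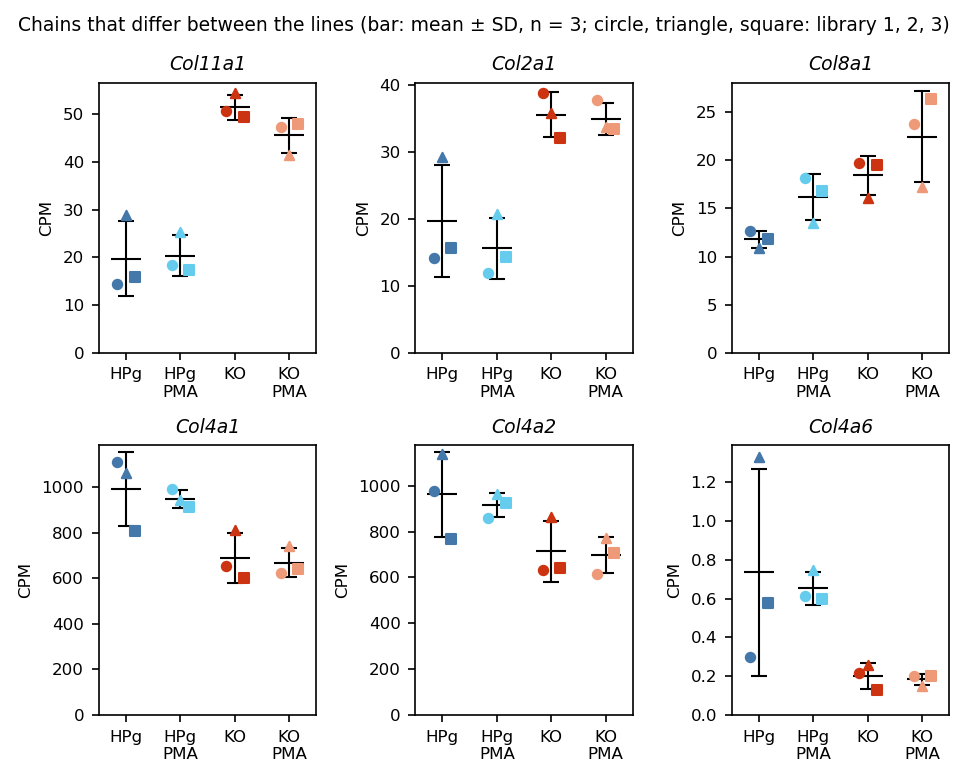
CPM in each library for the 5 chains called between the lines and Col4a2, by group (points: libraries, with circle, triangle and square for 1, 2 and 3; bars: mean ± SD, n = 3). Col11a1 and Col2a1 are higher, and Col4a6 is lower, in all 6 KO libraries than in all 6 HPg libraries, whereas Col8a1, Col4a1 and Col4a2 overlap between the lines.

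Of the basement membrane chains, Col4a1 (ENSMUSG00000031502) and Col4a2 (ENSMUSG00000031503), both on chromosome 8, encode the ubiquitous type IV network. Col4a1 had 1110, 1060 and 807 CPM in HPg libraries 1 to 3, 991, 943 and 911 in HPg PMA, 654, 811 and 602 in KO, and 623, 740 and 642 in KO PMA. Only KO library 2 (811 CPM) reached above an HPg library (807 CPM). Averaged over PMA Col4a1 was at 0.699 times the HPg level (log2 fold change -0.52, SE 0.12, edgeR adjusted p = 0.022). This call was lost without KO library 3 (edgeR adjusted p = 0.0669), KO PMA library 1 (0.0518) or HPg PMA library 1 (0.0514), and the blocked fit gave 0.000469. Col4a2 had 978, 1140 and 768 CPM in HPg, 859, 965 and 924 in HPg PMA, 633, 866 and 643 in KO, and 614, 772 and 708 in KO PMA. Its log2 fold change was -0.41 (SE 0.13, edgeR adjusted p = 0.0723), and the blocked fit called it (adjusted p = 0.00262). Its groups overlapped without PMA and not with PMA.

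Col4a1 and Col4a2 lie head to head on opposite strands and overlap in the annotation used. The part of shared reads in their similar levels and common direction was not tested. Their promoters are shown because the 2 chains differed in the same direction between the lines. The sequences come from RefSeq (GRCm38.p6, another build than that of the counts), run from 250 bases before to 50 bases after the start site, and are written 5′ to 3′ on the strand of each gene. Capitals mark matches, on either strand, to the GC box GGGCGG, the CCAAT box CCAAT, the TATA box TATAAA, the AP-1 motif TGANTCA, the cyclic AMP response element TGACGTCA or the EGR motif GCGNGGGCG, and an EGR match can overlap a GC box.
Col4a1, chr8:11312777-11313076, - strand: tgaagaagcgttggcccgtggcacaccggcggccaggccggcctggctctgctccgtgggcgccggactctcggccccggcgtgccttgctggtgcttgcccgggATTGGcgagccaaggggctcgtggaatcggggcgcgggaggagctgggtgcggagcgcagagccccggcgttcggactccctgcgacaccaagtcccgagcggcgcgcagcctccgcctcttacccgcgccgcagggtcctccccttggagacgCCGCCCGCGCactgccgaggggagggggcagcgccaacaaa
Col4a2, chr8:11312555-11312854, + strand: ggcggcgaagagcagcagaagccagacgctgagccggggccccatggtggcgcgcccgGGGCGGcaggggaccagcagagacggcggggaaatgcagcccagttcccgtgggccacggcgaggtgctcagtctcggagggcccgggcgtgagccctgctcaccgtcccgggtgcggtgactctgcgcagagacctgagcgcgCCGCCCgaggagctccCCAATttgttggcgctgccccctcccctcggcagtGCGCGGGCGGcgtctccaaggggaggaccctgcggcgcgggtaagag
The 2 start sites are 21 bases apart and the windows share 78 bases, in reverse complement of each other. The shared bases hold 1 EGR match overlapping a GC box. Of the 38 windows of 35 collagen chains in the RefSeq table, 3 (7.89%) held the EGR motif and 13 (34.2%) the CCAAT box, beside 5.55% and 37.4% of 32851 promoter windows of all genes. Col4a1 and Col4a2 are among the 3 with the EGR motif through the same shared match, which is thus counted in both. A match is a description of letters and not of binding.

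Col4a6 (ENSMUSG00000031273, chromosome X), whose product joins the α5 chain in the basement membranes of smooth muscle and some epithelia, was sparse. It had 0.30, 1.33 and 0.577 CPM in HPg, 0.614, 0.749 and 0.596 in HPg PMA, 0.215, 0.258 and 0.128 in KO, and 0.201, 0.151 and 0.202 in KO PMA, which is 18 to 159 counts per library. All KO libraries lay below all HPg libraries, and HPg library 2 was the highest. The averaged log2 fold change was -1.85 (SE 0.35, edgeR adjusted p = 0.00698), called without each library in turn. Neither single comparison called it (edgeR adjusted p = 0.0959 without and 0.0742 with PMA), and the blocked fit called both (0.0189 and 0.014), as a fit of only the PMA groups did with PMA (0.0276). Its neighbour and partner Col4a5, whose start site lies 1343 bases away on the other strand, had 0.117 to 0.323 CPM and a log2 fold change of -0.43 (edgeR adjusted p = 0.426). Col4a3 and Col4a4, the chains of kidney and lung basement membranes, had 0.0158 to 0.416 CPM, with log2 fold changes of 1.33 (SE 0.49, edgeR adjusted p = 0.105) and 0.74 (SE 0.36, 0.217). Without the libraries numbered 2 Col4a3 was called higher (1.69, edgeR adjusted p = 0.0483).

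Endothelial cells also make type IV collagen, and the summed level of 8 endothelial markers moved with the line, at 6.50 to 12.9 CPM in HPg, 8.70 to 11.2 in HPg PMA, 15.7 to 23.2 in KO and 15.1 to 19.5 in KO PMA. Erg made up most of the sum in KO, with means of 4.22 and 4.79 CPM in HPg without and with PMA and 12.8 and 10 in KO. Averaged over PMA, Erg (1.33, edgeR adjusted p = 0.0035) and Vwf (1.82, 0.00384) were called higher. The blocked fit called Tek higher as well (0.65, adjusted p = 0.0304) and Kdr lower (-0.77, 0.0185; means of 1.7 and 2.02 CPM in HPg, 0.752 and 1.33 in KO). Of the 8, Cdh5, Emcn and Tie1 had fewer than 10 counts in every library and Pecam1 had means of 0.691 to 0.784 CPM. The sum was higher and Col4a1 and Col4a2 were lower in KO, and the part of these markers in that difference was not tested. The summed level of 8 fibroblast markers was 4520 to 6130 CPM in HPg, 4550 to 5330 in HPg PMA, 3770 to 4570 in KO and 4110 to 4740 in KO PMA, most of it Vim. The blocked fit called Vim lower (-0.32, adjusted p = 0.00827) and Pdgfra higher (0.24, 0.0479) in KO, and neither was called without the block.

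Some smooth muscle and immune markers differed between the lines as well. Averaged over PMA, 1 of 8 smooth muscle markers was called higher in KO and none lower, beside 5.57% and 4.85% of all genes. It was Des (1.35, edgeR adjusted p = 0.00798). The blocked fit called 5 higher (Des, Acta2, Cnn1, Lmod1 and Tagln, 0.31 to 1.4) and 1 lower (Myh11, -0.6), beside 15.2% and 14.1%. The sums of the 8 overlapped (1730 to 3480 CPM over the groups). Of 4 tested immune markers, 1 was called higher in KO, Lyz2 (0.96, edgeR adjusted p = 0.0378), read against the same shares. This call was lost without library 1 or 3 of any group (0.069 to 0.0967). With the block 2 were called, Lyz2 and Itgam, and the sum of all 8 immune markers was 2.54 to 2.99 CPM in HPg and 3.88 to 4.26 in KO without PMA. The defining immune marker Ptprc had means of 0.0382 CPM or less. The sums of 8 osteoblast markers (24.4 to 46.4 CPM) and 8 epithelial markers (5.11 to 10.5 CPM) overlapped between the groups, and of these the blocked fit called Krt8 higher (2.21, adjusted p = 0.00963). The part of these lists, endothelial and fibroblast markers included, in the collagen results was not tested.

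Of the network and anchoring chains, Col8a1 (ENSMUSG00000068196, chromosome 16), a short chain of hexagonal networks in Descemet's membrane and vessels, had 12.7, 10.9 and 11.8 CPM in HPg, 18.2, 13.5 and 16.8 in HPg PMA, 19.7, 16.1 and 19.5 in KO, and 23.8, 17.2 and 26.4 in KO PMA. The KO libraries exceeded the HPg libraries without PMA, and the groups overlapped with PMA. Averaged over PMA it was 1.47-fold higher in KO (log2 fold change 0.56, SE 0.12, edgeR adjusted p = 0.0134, called without each library in turn). Its partner Col8a2 had group means of 20.5 to 26.8 CPM and was called in the blocked fit (0.57, adjusted p = 0.0157) and not without the block (0.732). Col10a1, the chain of hypertrophic cartilage, had 0.149 to 0.384 CPM and was called in neither fit (0.37, edgeR adjusted p = 0.464).

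The 8 tested FACIT chains had a median log2 fold change of 0.13, and none was called, beside 5.57% of all genes called higher and 4.85% lower. The blocked fit called Col12a1, which binds type I fibrils, higher (0.31, adjusted p = 0.00637; means of 371 and 359 CPM in HPg without and with PMA, and 473 and 422 in KO) and Col20a1 lower (-0.38, adjusted p = 0.0181; 4.6 and 8.42 CPM in HPg, 3.48 and 6.42 in KO). Beaded filament chains had a median of 0.00. Col6a1 (-0.17, SE 0.15), Col6a2 (-0.19, SE 0.20) and Col6a3 (0.00, SE 0.19) were called in neither fit, with group means of 1070 to 1260, 574 to 727 and 825 to 957 CPM. The sparse Col6a4 (1.44, blocked adjusted p = 0.00392; means of 0.245 and 0.172 CPM in HPg, 0.421 and 0.609 in KO) and Col26a1 (0.88, 0.00842; 0.514 and 0.581, 0.926 and 0.894) were called higher in the blocked edgeR fit. So were the transmembrane chains Col17a1 (0.78, 0.0269; 0.357 and 0.377, 0.727 and 0.568) and Col23a1 (0.69, 0.0358; 0.307 and 0.387, 0.525 and 0.587). Col18a1 had means of 165 to 188 CPM and a log2 fold change of 0.11 (SE 0.15), called in neither fit. The other tested chains were called in neither fit between the lines, with log2 fold changes of 0.42 for Col14a1, 0.40 for Col9a3, 0.17 for Col19a1, 0.08 for Col9a2, -0.13 for Col16a1 and -0.30 for Col22a1 among FACIT chains, 0.42 for Col13a1 and 0.02 for Col7a1.

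After PMA, Col11a2 and Col9a3 were called higher in both lines and Col7a1 in KO, while no chain was called lower. In HPg 2 chains were called higher (5.41%, beside 2.53% of all genes) and none lower (beside 0.92%), and in the blocked fit 5 higher (13.5%, beside 8.62%) and none lower (beside 6.19%). In KO 3 chains were called higher (8.11%, beside 2.81%) and none lower (beside 1.63%), and in the blocked fit 4 higher (10.8%, beside 6.79%) and none lower (beside 6.56%). With edgeR, 5 of 37 chains in HPg and 4 in KO had an unadjusted p below 0.05, beside 2889 and 2639 of all 16630 genes tested. The median log2 fold change over the chains was 0.00 in HPg and -0.03 in KO, and -0.02 over all genes in both. The summed level of 8 immune markers moved with PMA, at 2.54 to 2.99 CPM in HPg, 3.47 to 5.66 in HPg PMA, 3.88 to 4.26 in KO and 5.56 to 6.87 in KO PMA, where Cd68 and Lyz2 had the highest means. The blocked fit called Cd68 higher in both lines (0.79 and 0.85, edgeR adjusted p = 0.0285 and 0.0213). Among chondrocyte markers, the blocked fit called Sox9 higher in KO (0.82, adjusted p = 0.009, and 0.363 without the block) and Comp lower in HPg (-0.73, 0.0385, and 0.3 without the block). The part of these markers in the results was not tested. Each PMA comparison uses libraries that the line comparisons also use, and the 2 PMA comparisons share none with each other.

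Col11a2 (ENSMUSG00000024330, chromosome 17), the α2 chain of type XI collagen, had 1.01, 0.688 and 1.52 CPM in HPg libraries 1 to 3 and 2.95, 5.91 and 3.62 in HPg PMA. In KO it had 2.01, 1.66 and 1.55 CPM, and in KO PMA 5.44, 5.09 and 5.45. The treated libraries lay above the untreated ones in both lines, and HPg PMA library 2 was the highest of all. The rise was 3.87-fold in HPg (log2 fold change 1.95, SE 0.31, edgeR adjusted p = 0.00442) and 3.06-fold in KO (1.62, SE 0.30, adjusted p = 0.0105). In KO the call was lost without KO library 3 (edgeR adjusted p = 0.0636), and in HPg in a fit of only these 2 groups (0.0593). With the rise, the per-kilobase ratio of its partner Col11a1 to Col11a2 was 12 ± 9.2 in HPg, 2.75 ± 0.55 in HPg PMA, 16.2 ± 2.2 in KO and 4.61 ± 0.19 in KO PMA (SD, n = 3 each).

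Col9a3 (ENSMUSG00000027570, chromosome 2), the α3 chain of the cartilage FACIT type IX, had 0.458, 0.746 and 0.987 CPM in HPg and 1.74, 3.08 and 2.65 in HPg PMA. It had 1.23, 0.811 and 1.07 CPM in KO and 3.46, 2.78 and 2.90 in KO PMA. No treated library overlapped with an untreated one of its line. Col9a3 rose 3.41-fold in HPg (1.77 on the log2 scale, SE 0.31, edgeR adjusted p = 0.009, and 0.0694 in a fit of only these 2 groups) and 2.95-fold in KO (1.56, SE 0.31, adjusted p = 0.0135). The KO call was lost without KO library 2 (edgeR adjusted p = 0.0576) or 3 (0.0648). Of the other type IX chains, Col9a1 was not tested and Col9a2 was called in neither fit. Col9a2 had 16 to 67 counts per library (0.121 to 0.600 CPM). Its log2 fold changes were 0.15 (SE 0.54) in HPg and -0.49 (SE 0.54) in KO. With these standard errors a smaller rise of Col9a2 remains undecided. Col9a3 overlaps Tcfl5 on the opposite strand, which did not pass the filter on low counts.

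Col7a1 (ENSMUSG00000025650, chromosome 9), the chain of the anchoring fibrils that fix the epidermis to the dermis, had 1.60, 1.84 and 1.94 CPM in HPg and 2.59, 2.88 and 3.04 in HPg PMA, and 1.89, 1.49 and 1.42 CPM in KO and 3.52, 2.49 and 3.79 in KO PMA. Treated and untreated libraries did not overlap in either line. In KO it rose 2.05-fold (1.03, SE 0.22, edgeR adjusted p = 0.017), a call lost without KO library 2 (0.0692) or 3 (0.0996), without KO PMA library 3 (0.0816), and in a fit of only these 2 groups (0.0639). In HPg the log2 fold change was 0.66 (SE 0.21, edgeR adjusted p = 0.122, and 0.0384 in the blocked fit). The difference between the 2 responses was 0.37 (SE 0.30, edgeR adjusted p = 1), so a difference between the lines was not called.

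The FACIT chain Col20a1 (ENSMUSG00000016356, chromosome 2) had 3.19, 5.53 and 5.08 CPM in HPg, 6.96, 10.8 and 7.54 in HPg PMA, 3.35, 3.68 and 3.41 in KO and 5.63, 7.72 and 5.93 in KO PMA. Treated libraries were above untreated ones in both lines. The log2 fold changes of 0.87 in HPg (SE 0.23, edgeR adjusted p = 0.0635) and 0.89 in KO (SE 0.23, 0.0532) were called in the blocked fit (0.00204 and 0.00201) and not without the block, and a fit of only the KO groups called the second (edgeR adjusted p = 0.0395). Col8a1 was called after PMA in HPg in the blocked fit (0.45, adjusted p = 0.0127) and not without the block (0.181). An unnamed gene of the annotation, BX649560.1, overlaps Col20a1 on the same strand and had log2 fold changes of 0.07 and 0.16. The genes upstream of the 4 PMA-responding chains had log2 fold changes of -0.26 to 0.33 in the 2 lines (Rxrb, Ogfr, Uqcrc1 and Arfgap1). Of these none was called without the block, and the blocked fit called Ogfr, upstream of Col9a3, higher in KO (0.33 without the block, blocked edgeR adjusted p = 0.0448).

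**Figure D5:**
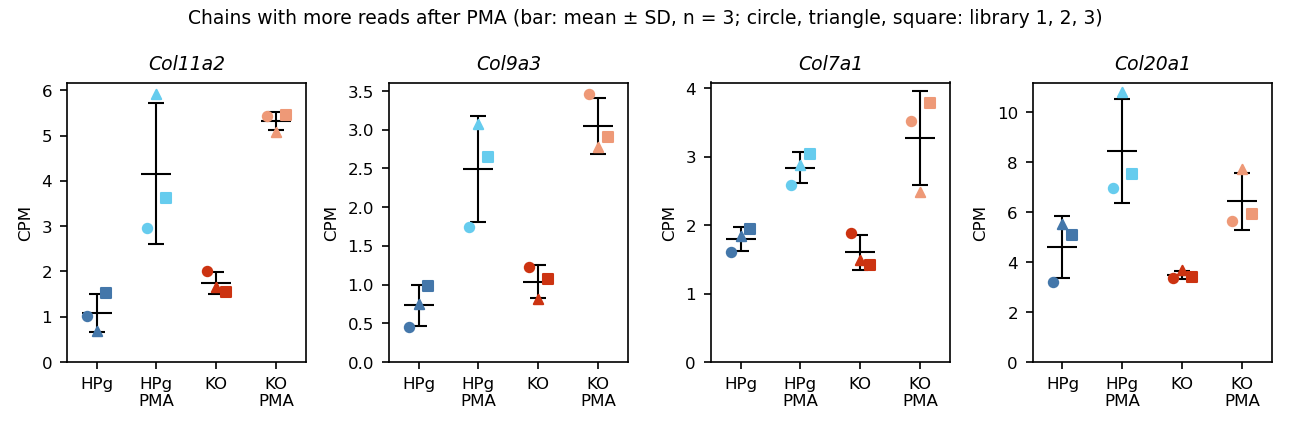
CPM in each library for Col11a2, Col9a3, Col7a1 and Col20a1 by group (points: libraries, with circle, triangle and square for 1, 2 and 3; bars: mean ± SD, n = 3). In each panel the PMA libraries of a line lie above its untreated libraries.

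Promoters of 3 of the 4 chains were in the RefSeq table and are shown because these chains rose or were called together after PMA, with that of Col11a1 to compare the 2 type XI partners, of which only Col11a2 was called after PMA. Strand, span, build and capitals are as for the type IV promoters.
Col11a2, chr17:34038888-34039187, + strand: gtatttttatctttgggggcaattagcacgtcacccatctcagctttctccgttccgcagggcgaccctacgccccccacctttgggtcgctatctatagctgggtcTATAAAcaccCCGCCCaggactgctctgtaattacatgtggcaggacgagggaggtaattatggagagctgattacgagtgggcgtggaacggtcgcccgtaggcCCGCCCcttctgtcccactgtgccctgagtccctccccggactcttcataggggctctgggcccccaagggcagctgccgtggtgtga
Col7a1, chr9:108953336-108953635, + strand: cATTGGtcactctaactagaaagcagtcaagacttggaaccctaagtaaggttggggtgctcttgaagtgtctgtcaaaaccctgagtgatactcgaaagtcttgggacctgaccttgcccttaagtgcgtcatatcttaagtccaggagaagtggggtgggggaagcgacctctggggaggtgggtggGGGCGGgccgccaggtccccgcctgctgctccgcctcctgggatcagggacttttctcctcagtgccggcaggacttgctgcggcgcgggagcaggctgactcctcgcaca
Col20a1, chr2:180986285-180986584, + strand: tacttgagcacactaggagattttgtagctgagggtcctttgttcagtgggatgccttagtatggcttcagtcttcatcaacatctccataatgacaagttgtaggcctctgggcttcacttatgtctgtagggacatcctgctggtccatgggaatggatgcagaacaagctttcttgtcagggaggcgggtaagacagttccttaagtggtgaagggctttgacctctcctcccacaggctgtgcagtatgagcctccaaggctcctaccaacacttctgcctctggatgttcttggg
Col11a1, chr3:114030290-114030589, + strand: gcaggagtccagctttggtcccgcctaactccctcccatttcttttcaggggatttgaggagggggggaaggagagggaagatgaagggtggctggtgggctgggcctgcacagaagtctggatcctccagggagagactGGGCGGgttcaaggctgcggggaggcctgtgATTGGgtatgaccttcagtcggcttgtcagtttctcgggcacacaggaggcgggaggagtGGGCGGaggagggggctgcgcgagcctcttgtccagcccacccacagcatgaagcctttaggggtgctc
The window of Col11a2 held a TATA box 143 bases before the start and 2 GC boxes, and that of Col11a1 held 2 GC boxes and 1 CCAAT box. That of Col7a1 held 1 GC box and 1 CCAAT box, and that of Col20a1 held no match to the 6 motifs. The window of Col8a1, called after PMA only in HPg and only in the blocked fit, is not shown. It held 1 EGR match and 4 GC boxes. The AP-1 motif was in 1 of the 38 collagen windows (2.63%), that of Col6a1, and in 7.81% of all windows. The cyclic AMP response element was in 1, that of Col24a1, and in 1.79% of all windows. The GC box was in 23 (60.5%), beside 35.7%, and the TATA box in 5 (13.2%), beside 13.6%. No match says only that these letters are not in the window.

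No collagen chain responded differently to PMA between the lines by the test of that difference. The interaction called 0 of 37 chains and 0 of 16630 genes in either direction (0% higher and 0% lower, also in the blocked fit). Of the chains, 0 had an unadjusted p below 0.05 with edgeR and 1 in the blocked fit. Over all genes 328 had an unadjusted p below 0.05 with edgeR and 1275 in the blocked fit, and DESeq2 called 1 gene. The interaction log2 fold change was -0.34 (SE 0.42) for Col11a2, -0.21 (SE 0.43) for Col9a3 and 0.01 (SE 0.33) for Col20a1.

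Abundant collagens did not pass the test after PMA. Col1a1 had log2 fold changes of -0.36 (SE 0.35) in HPg and -0.12 (SE 0.35) in KO, Col3a1 0.05 (SE 0.62) and -0.02 (SE 0.62), and Col4a1 -0.07 (SE 0.18) and -0.04 (SE 0.18). Col6a1 had -0.09 (SE 0.22) and 0.05 (SE 0.22). Col2a1 and Col11a1, which differed between the lines, had -0.33 (SE 0.26) and 0.04 (SE 0.23) in HPg and -0.02 (SE 0.26) and -0.18 (SE 0.23) in KO.

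Genes that act on collagens were compared from 4 lists. Of 21 genes of collagen synthesis in the endoplasmic reticulum, 1 was called higher and none lower in KO averaged over PMA, beside 5.57% and 4.85% of all genes, and 4 and 1 in the blocked fit, beside 15.2% and 14.1%. The 1 called was P3h4, a component of a lysyl hydroxylase complex, with group means of 121 and 106 CPM in HPg without and with PMA and 145 and 147 in KO (0.37, edgeR adjusted p = 0.0382, lost without HPg, HPg PMA or KO library 1 or 3, or KO PMA library 1 or 2, at 0.052 to 0.102). The others named by unadjusted p were the transcription factor Creb3l1 (0.66, edgeR adjusted p = 0.0525, and 0.0142 in the blocked fit), the collagen galactosyltransferase Colgalt1 (-0.24, 0.132, and 0.022 in the blocked fit) and its relative Colgalt2 (0.95, 0.151).

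Of 13 genes of propeptide removal and cross-linking, 2 were called higher and none lower, beside 5.57% and 4.85% of all genes, and 7 and 0 in the blocked fit, beside 15.2% and 14.1%. Loxl2, a lysyl oxidase, had means of 1.60 and 1.44 CPM in HPg and 2.37 and 2.17 in KO (0.58, edgeR adjusted p = 0.0296), and Adamts14, a procollagen N-proteinase, 3.71 and 2.87 in HPg and 6.20 and 5.36 in KO (0.82, 0.0314). The call of Loxl2 was lost in 9 of the 12 fits that each left out 1 library (edgeR adjusted p = 0.0512 to 0.0801), all but those without HPg libraries 2 and 3 and KO PMA library 1. That of Adamts14 was lost without HPg or HPg PMA library 1 or 3, KO library 2 or 3, or KO PMA library 1 or 2 (0.0548 to 0.0849). Lox, the abundant lysyl oxidase, had 445, 831 and 361 CPM in HPg, 434, 835 and 353 in HPg PMA, 867, 1360 and 715 in KO and 946, 1240 and 759 in KO PMA. It followed the libraries numbered 2 in every group and was called in the blocked fit (0.91, adjusted p = 6.09e-06) and not without the block (0.0653). Loxl4 (0.24) was called in the blocked fit (edgeR adjusted p = 0.0187) and not without the block (0.101).

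Of 11 tested regulators of fibril assembly, 1 was called higher and none lower, beside the same 5.57% and 4.85% of all genes, and 5 and 1 in the blocked fit, beside 15.2% and 14.1%. Aspn, a small leucine-rich proteoglycan, had means of 36.8 and 48.7 CPM in HPg and 90.9 and 85.1 in KO (1.05, SE 0.21, edgeR adjusted p = 0.00925, called without each library in turn). Prelp (0.99, edgeR adjusted p = 0.118) and Bgn (0.33, 0.283) were called in the blocked fit and not without the block, at 5.92e-05 and 0.0122, and Ogn (0.61, 0.174) in neither. Of 8 tested collagen receptors, 1 was called higher and none lower, and 3 and 0 in the blocked fit, read against the same shares. Itga11, the integrin α11 chain that binds fibrillar collagen, had 0.864 to 1.35 CPM in the 6 HPg libraries and 2.86 to 3.9 in the 6 KO libraries, with no overlap (1.65, SE 0.16, edgeR adjusted p = 0.000153, called without each library in turn). The endocytic receptor Mrc2 (0.46, edgeR adjusted p = 0.0821) and Itga1 (0.39, 0.556) were called in the blocked fit and not without the block, at 0.000399 and 0.00601, and Itga2 (0.70, 0.502) in neither. After PMA, no gene of the 4 lists was called in HPg without the block, beside 2.53% of all genes called higher and 0.92% lower. In KO 1 was called, beside 2.81% higher and 1.63% lower. It was Loxl4, which was higher (0.62, SE 0.12, edgeR adjusted p = 0.0137), a call lost without KO library 1 (0.053) or 3 (0.066) or KO PMA library 2 (0.0633) or 3 (0.0625). The blocked fit called lower Crtap (-0.32), Adamts2 (-0.30), Loxl1 (-0.41) and Ddr1 (-0.31) in HPg (edgeR adjusted p = 0.0152 to 0.0472), beside 6.19% of all genes, and P3h2 in KO (-0.64, 0.0272), beside 6.56%.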

How the data were processed

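RNA was measured in 12 libraries. Per the labels' protocols, ribosomal RNA was removed from total RNA before directional paired-end libraries were made. The authors deposited raw counts of reads per gene, and the submitters' processing notes name cutadapt 1.11, STAR 2.5.0a, featureCounts 1.4.6-p3, Subread and mm9. The release of the annotation, the strand option and the unit counted (reads or read pairs) remain not given in the sources used here, so reads of overlapping genes cannot be told apart: 20 of the 44 chains are overlapped by another gene, 13 on the opposite strand. Symbols, gene order and exon lengths came from GENCODE M21 (GRCm38), so no gene coordinates are printed, and promoters from RefSeq (GRCm38.p6).

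Genes kept by filterByExpr (minimum count 10, minimum total 15) entered 1 edgeR fit of 12 libraries with a coefficient per group (edgeR 4.0.16, limma 3.58.1, R 4.3.3; TMM factors, robust quasi-likelihood test, Benjamini-Hochberg adjustment over 16630 genes). There were 6 comparisons: KO with HPg untreated, treated and averaged, PMA in each line, and the interaction. The script was tested on simulated data. The smallest exact permutation p for 3 against 3 libraries is 0.1.

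In the blocked fit the replicate number was taken to pair the samples, which the labels do not state. Deviations from group means correlated at 0.159 to 0.558 in the 18 same-numbered pairs. The other 36 pairs correlated at -0.517 to 0.163, so the ranges overlapped narrowly. Deviations within a group sum to 0, so these ranges are not independent of each other. The pairing rests on numbers in the labels and on these data. Within groups, chi-square per degree of freedom was 108 to 715, so libraries spread beyond counting noise, and the library was the unit of the tests. This does not make libraries independent replicates of a genotype, as each genotype is 1 line.

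Values per library are given for chains called in any comparison and for abundant chains of each class, and in each list the genes named are those of lowest unadjusted p, up to 4. Where other genes are named (neighbours, markers), they were chosen after their values were seen. The chains and lists were chosen with earlier results of these data known. The symbol of 1 gene of the lists was not matched and is not analysed here. Alternatives were other scaling factors, filters of low counts, DESeq2 1.42.0, the replicate block, a correction for GC content and length, only the groups compared, and each library left out.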

Additional observations from a re-analysis of the deposited data

Results flagged for a closer look

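For Col5a3, the α3 chain of type V collagen, the difference between PMA and untreated libraries had opposite signs in the 2 lines in every same-numbered pair, without passing the test in either. In HPg it had 11.2, 34.3 and 12.9 CPM in libraries 1 to 3 and 10.7, 28.9 and 12.5 with PMA, lower in 3 of 3 pairs (log2 fold change -0.16, SE 0.44, edgeR adjusted p = 0.908). In KO it had 18.9, 29.4 and 22.2 CPM and 21.4, 30.2 and 22.2 with PMA, higher in 3 of 3 pairs, though equal as printed in pair 3 (0.07, SE 0.44, edgeR adjusted p = 0.976). The test of the difference gave an interaction of 0.23 (SE 0.62, edgeR adjusted p = 1), so the difference was not called.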

How the results depend on the processing

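The number of chains called depended on the setting in every comparison but the interaction. Pairing by replicate number (the block) raised it from 1 to 8 without PMA, from 2 to 10 with PMA, from 5 to 19 averaged over PMA, and from 2 to 5 for PMA in HPg. With the block and the correction for GC content and length it was 8, 10, 21 and 6, and 5 (main 3) for PMA in KO. That correction alone gave 2 for the line without PMA and 4 with PMA. DESeq2 called 5 and 4 for the line without and with PMA, and 4 for PMA in HPg. A fit of only the groups compared called 0 for the line without PMA and 0 for PMA in HPg. Without the libraries numbered 2, 5, 7 and 15 chains were called for the line without PMA, with PMA and averaged. The cause was not tested. Shares of all genes called stand above for the block, and for the averaged comparison without the libraries numbered 2. For the other settings they are not given, so the counts of chains there are not set against all genes. Leaving out 1 library gave 0 to 2 without PMA, 0 to 3 with PMA, 4 to 8 averaged, 2 in each fit for PMA in HPg, 0 to 4 for PMA in KO and 0 for the interaction. The median over chains moved from 0.27 to 0.51 without HPg library 2 and to 0.49 without the libraries numbered 2 (line without PMA), and from 0.00 to 0.28 without HPg library 2 (PMA in HPg). The log2 fold change of Col3a1 went from -0.05 without KO library 2 to 1.29 without HPg library 2 (line without PMA), and from -0.03 without KO PMA library 2 to 1.32 without HPg PMA library 2 (line with PMA). Chains with few counts, such as Col4a6, rest on 18 to 159 counts per library, and those below the filter were not tested in the main fit.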
